A study of Mus musculus with 8 samples.

Results

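TRBV19, TRBV20, TRBV21, TRBV23, TRBV24, TRBV26 and TRBV30 are 7 variable (V) gene segments of the T cell receptor β (TRB) locus. They lie in the downstream stretch of the V gene array, and TRBV29, which sits among them, was set apart. Their members here are the cell barcodes whose first TRB chain was given 1 of these 7 names, with multiplet barcodes left out and trailing copy numbers of a name ignored. This gave 17610 of 188544 barcodes with a TRB chain, 13206 of 138717 distinct TRB chains and 6869 of 66914 barcodes with both a TRA and a TRB chain. A distinct chain is 1 combination of V gene, J gene and CDR3 amino acids within a tissue of an animal, so a clone of any size counts as 1 distinct chain.

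The receptor chains came from CD8+ T cells of mice on a C57BL/6 background, read by single-cell sequencing of TRA and TRB transcripts. The series covers Pdcd1fl/fl control mice and Pdcd1 cKO mice, in which E8I CD8-Cre removes Pdcd1, the gene of PD-1, from CD8+ T cells after positive selection. CD8+ cells were taken from thymus and spleen at baseline, and from thymus and tumor of mice carrying the melanoma lines B16-OVA or B16-F10. The deposited tables name an animal and a tissue but no genotype or tumor line, and the 8 sequencing samples are sublibraries that each pool cells of all tables. Genotypes and tumor lines were therefore not compared. There were 14 tables from 7 animals, each of which gave a thymus and 1 second tissue. The second tissue was spleen for 2 of them, mouse-155A and mouse-155C, and tumor for the other 5. Tissue and animal are known from the table names alone, since the labels assign no sample to a group. No test across animals was therefore run, and values carry an interval for counting error, with the number of animals that show each direction in place of a p-value.

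The tables held 5281 to 29894 TRB barcodes each, of which 19.2% to 44.4% also had a TRA chain, and multiplets were 1.21% to 20.6% of the TRB barcodes before they were left out. No barcode string occurred in 2 tables, and no chain of the TRG, TRD or immunoglobulin loci was listed. Only receptor transcripts were read, so neither CD8 genes nor the loss of Pdcd1 could be checked. Intervals are exact Clopper-Pearson 95% intervals for shares and log-binomial 95% intervals for ratios, and cover counting error only, since amplified transcripts are not independent draws of cells.

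A TRB chain is assembled in the thymus by V(D)J recombination, which joins a V, a D and a J segment. Each V segment ends in a recombination signal sequence (RSS), a heptamer and a nonamer held apart by a spacer, which the RAG recombinase recognises. Bases are trimmed and added at the joints, and the stretch across the joint is the CDR3, which contacts peptide and MHC. Most mouse TRBV segments lie upstream of the D and J segments on the same strand, whereas TRBV31 lies downstream in inverted orientation.

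The 30 bases before the RSS of each V segment and the RSS itself are shown because they hold the start of the CDR3 and the site that is cut. They were read from GRCm39, all on the plus strand of chromosome 6, with the heptamer and the nonamer in capitals.
TRBV19 (chr6:41155953-41156021): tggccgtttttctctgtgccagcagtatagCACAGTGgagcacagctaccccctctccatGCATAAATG
TRBV20 (chr6:41165882-41165950): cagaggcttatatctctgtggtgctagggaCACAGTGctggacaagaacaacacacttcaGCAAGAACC
TRBV21 (chr6:41179949-41180016): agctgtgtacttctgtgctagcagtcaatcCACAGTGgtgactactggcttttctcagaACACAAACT
TRBV23 (chr6:41193431-41193498): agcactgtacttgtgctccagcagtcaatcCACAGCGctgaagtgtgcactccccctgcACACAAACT
TRBV24 (chr6:41195462-41195530): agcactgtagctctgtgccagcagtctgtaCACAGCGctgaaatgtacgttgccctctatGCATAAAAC
TRBV26 (chr6:41204898-41204966): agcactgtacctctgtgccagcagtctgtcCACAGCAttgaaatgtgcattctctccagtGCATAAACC
TRBV30 (chr6:41258895-41258963): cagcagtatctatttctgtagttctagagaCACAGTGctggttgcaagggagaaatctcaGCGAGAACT

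Each gene has 2 annotated exons, and the windows cover the end of the second exon and the sequence that follows the gene. TRBV19 lies 354 kb and TRBV30 251 kb before Trbd1, the first D segment. TRBV24 is annotated as a pseudogene, while the other 6 are annotated as V genes. The heptamer CACAGTG stood at this place in TRBV19, TRBV20, TRBV21 and TRBV30, against 8 of all 35 annotated TRBV segments (22.9%). These 8 include the members just named, and all 8 are among the 22 segments annotated as V genes. The full nonamer ACAAAAACC stood in none of the 7 and in 1 of the 35 segments. Against these 2 motifs, searched in the direction of each gene, TRBV20 and TRBV21 matched at 14 of 16 positions, TRBV23 at 13, and the other members at 12. The 22 segments annotated as V genes had a median of 13 matching positions, with a range of 10 to 16, so the members lay inside the range of the locus. The spacer was 22 bases long in TRBV21 and TRBV23 and 23 bases in the other members. Across these 22 segments the match count and the median thymus share had a Spearman rho of -0.23, given as a description over segments that differ in much else.

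Before any comparison, the V names were set against the germline, using the reads of the annotation tables. Each read was compared up to base 11 of the CDR3, and later V bases were not used. For TRBV19, TRBV20, TRBV23, TRBV26 and TRBV30, no annotated barcode had a read that was closer to another TRBV segment than to its own. Reads that matched another segment equally well were not counted. Over that stretch, 59.3% of TRBV20 and 72.0% of TRBV30 barcodes had no mismatch to their own germline. The share was 87.3% for TRBV19, 94.1% for TRBV23 and 95.1% for TRBV26. The name TRBV21 was in doubt. Of 246 annotated barcodes named TRBV21, 245 (99.6%) had fewer mismatches in that stretch to TRBV3, an upstream V gene, than to TRBV21. The remaining 1 read matched TRBV21 fully there. The difference over these bases was the substitution T6C, counted from the first base of the conserved cysteine codon that opens the CDR3. The TRBV21 germline base is given first and the TRBV3 base second. That base is capitalised in the stretches below.
TRBV21 germline (chr6:41179950-41179972): gctgtgtacttctgtgcTagcag
TRBV3 germline (chr6:41025730-41025752): gctgtgtacttctgtgcCagcag
TRBV21-labelled chains, 245 barcodes: gctgtgtacttctgtgcCagcag

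The reads behind the TRBV21 name covered a median of 25 bases of V sequence, against 157 for TRBV19, 163 for TRBV20, 81 for TRBV23, 44 for TRBV26 and 70 for TRBV30. All 9904 annotated barcodes named TRBV3 carried the same C. After base 11 of the CDR3 the TRBV21 and TRBV3 germlines differ again. The leading TRBV21-labelled chain, from the mouse-160A tumor, had 14 assigned V bases. Those after base 11 match TRBV21 and not TRBV3. The germline source of these chains was therefore not settled. The 291 barcodes of this name (287 as TRBV21_1, 4 as TRBV21_2) are kept in the sums because the rule names them, and are called TRBV21-labelled below. They made up 0.074% to 0.492% of a table's barcodes.

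TRBV24 was named for a single barcode, in the thymus of mouse-160C. None was found in the other 13 tables. The TRBV24 germline holds the stop codon TAG shortly before the conserved cysteine, and over the 30 bases printed above it differs from TRBV26 by G10C and A30C, counted from the first base with the TRBV24 base first. The single read matched 66 of 67 germline TRBV24 bases, with 11 mismatches to TRBV26. Its only difference from TRBV24, G50C over those 67 bases, fell on the last base of the stop codon, where TRBV26 has the same substitution. This chain had 1 transcript and TRBJ2-3, and was paired with a TRAV16 and TRAJ40 alpha chain.

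In the thymus TRBV19, TRBV20, TRBV23, TRBV26 and TRBV30 differed widely in use. TRBV19 was the most used, with a median of 4.48% of distinct chains over the 7 thymus tables (range 3.94% to 4.50%), which was rank 10 of the 24 TRBV genes seen. TRBV26 followed with 3.29% (2.67% to 3.46%), rank 17. TRBV20 had 1.56% (1.33% to 1.77%), TRBV23 had 0.592% (0.493% to 0.708%) and TRBV30 had 0.265% (0.187% to 0.329%), ranks 19 to 21. The neighbours in the array that are no members had 6.94% (TRBV29) and 3.32% (TRBV31).

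The order of TRBV26, TRBV20 and TRBV23 was well resolved. The share of TRBV26 was above that of TRBV20 in 14 of 14 tables without overlap of their exact intervals, and that of TRBV20 was above that of TRBV23 in 14 of 14, with overlap in 1. TRBV19 exceeded TRBV26 in 11 of 14 tables, and their intervals overlapped in 7, of which 1 was a thymus table. TRBV23 and TRBV30 overlapped in 9 tables, 2 of them thymus, so their order is less firm. Over 21 plus-strand segments the median thymus share and the distance to Trbd1 had a Spearman rho of 0.47, again only a description, with higher shares farther from the D segments. Among the members, TRBV30, the nearest to Trbd1, was used less than TRBV19, the farthest, while TRBV29, the annotated V gene next to TRBV30, ranked 4 of 24.

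**Figure D1:**
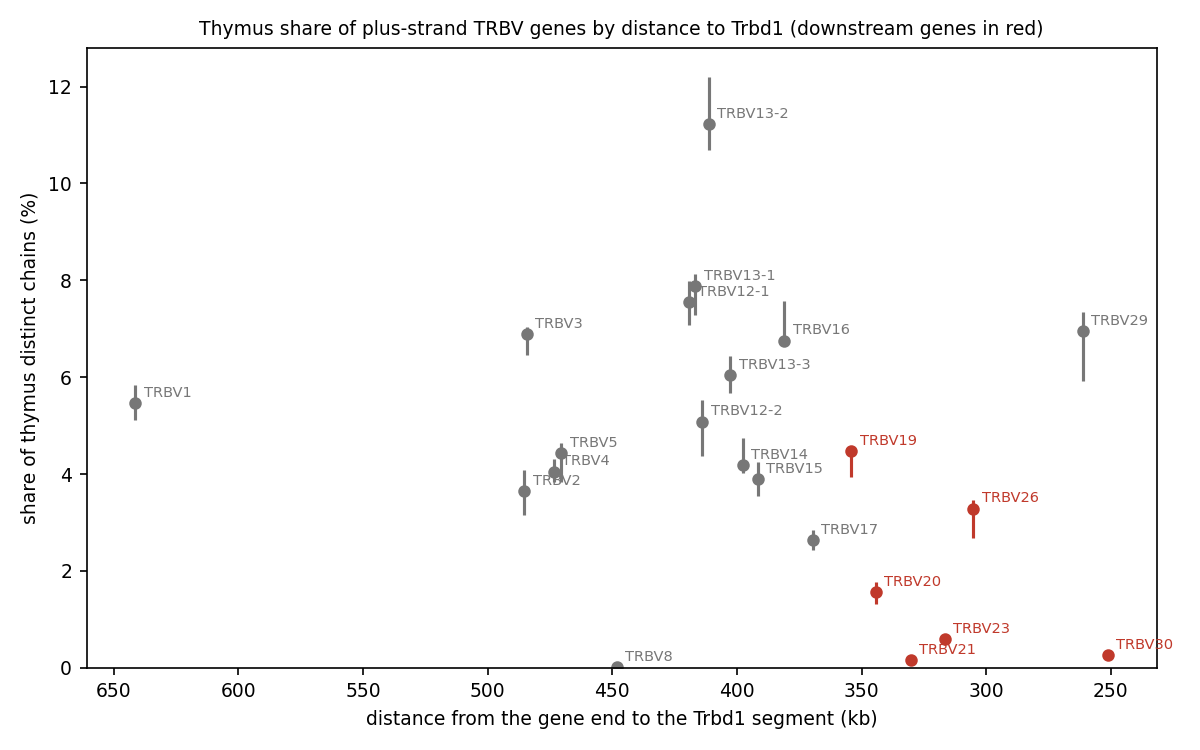
Share of thymus distinct TRB chains (%, vertical axis) against the distance from the end of each plus-strand TRBV gene to Trbd1 (kb, horizontal axis, running toward the D segments), with points at the median and bars over the range of 7 thymus tables. The downstream genes (red) run from 4.48% for TRBV19 to 0.265% for TRBV30. The point labelled TRBV21 rests on reads that were closer to TRBV3 up to base 11 of the CDR3.

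Summed over the 7 members, the share of barcodes was steady across thymuses and varied more outside. The thymus tables lay between 8.80% and 9.94% with a median of 9.61%. The spleens had 8.21% (mouse-155A) and 7.32% (mouse-155C). Among tumors, the share was highest in mouse-160A (11.3%) and in mouse-164C (10.7%). It was 8.77% in mouse-164B, 8.33% in mouse-160B and 7.59% in mouse-160C. Within each animal, the second tissue was below the thymus in 5 of 7 animals, with intervals below 1 in those 5, and above it in mouse-160A (ratio 1.28, 95% interval 1.15 to 1.43) and mouse-164C (1.11, 1.05 to 1.18).

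Counted as distinct chains, both of those tumors turned over. The summed share was then lower outside the thymus in 7 of 7 animals, with a median ratio of 0.853 (range 0.799 to 0.926) and an interval below 1 in 6 of them. The ratio was 0.926 (0.776 to 1.10) in mouse-160A and 0.843 (0.790 to 0.899) in mouse-164C.

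The lower share of distinct chains came from TRBV19, TRBV20 and TRBV23. TRBV19 had shares of 3.94%, 4.50%, 4.36%, 4.50%, 4.48%, 4.32% and 4.48% in the thymuses, with the animals in the order mouse-155A, mouse-155C, then the tumor bearers mouse-160A to mouse-160C, mouse-164B, mouse-164C. In the second tissues, in the same order, it had 3.49%, 2.64%, 3.25%, 3.91%, 3.27%, 3.77% and 3.46%. No second tissue reached the lowest thymus. The ratio was below 1 in 7 of 7 animals, with a median of 0.772 (range 0.587 to 0.884) and an interval below 1 in 6.

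TRBV20 had 1.56%, 1.34%, 1.33%, 1.77%, 1.54%, 1.69% and 1.69% of distinct chains in the thymuses and 1.28%, 1.17%, 0.963%, 1.10%, 1.32%, 1.08% and 1.25% in the second tissues, in the same order of animals. Again the highest second tissue lay just under the lowest thymus. The median ratio was 0.744 (range 0.624 to 0.872), with an interval below 1 in 3 of 7 animals. TRBV23, with far fewer chains, had a median ratio of 0.641 (0.505 to 0.712), also below 1 in 7 of 7 animals and with an interval below 1 in 3. Its thymus tables held 33 to 103 distinct chains and each second tissue 7 to 78.

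TRBV26 and TRBV30 did not move this way. TRBV26 was lower outside the thymus in 3 animals and higher in 4, with a median ratio of 1.01 (0.884 to 1.28) and no interval clear of 1. TRBV30 was lower in 2 and higher in 5, with a median ratio of 1.21 (0.811 to 1.89). Only in mouse-160B was its interval above 1 (1.79, 1.16 to 2.76). For TRBV21-labelled chains the direction was split over 3 and 4 animals, with no interval clear of 1.

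**Figure D2:**
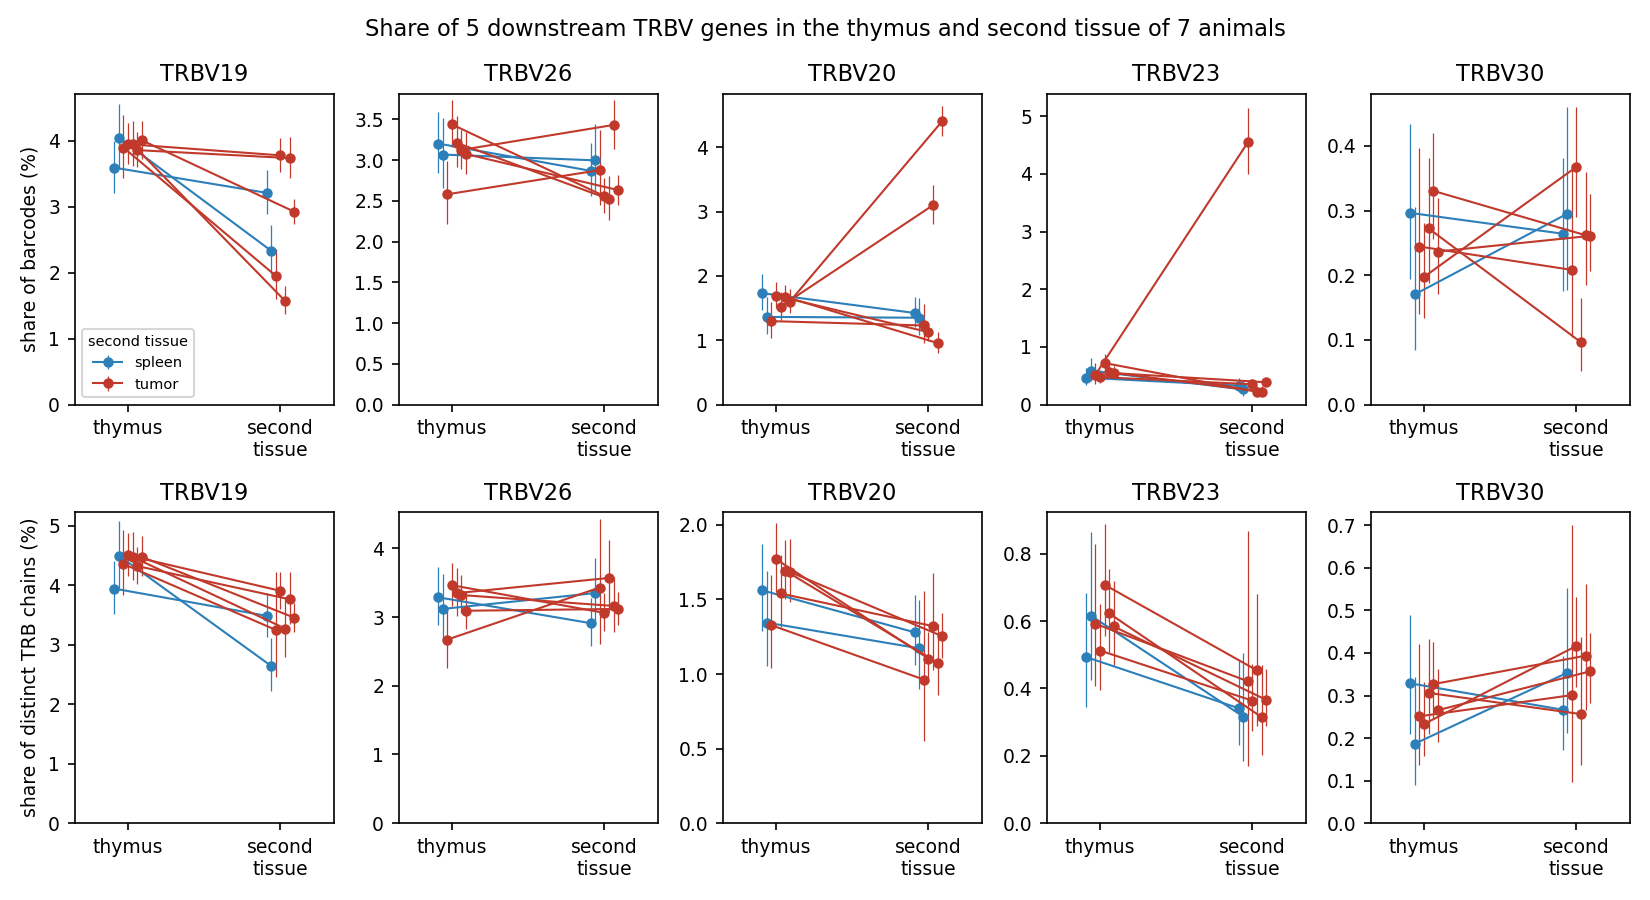
Share of barcodes (%, upper row) and of distinct TRB chains (%, lower row) for 5 members in the thymus and the second tissue of 7 animals, where lines join the tissues of 1 animal (blue for spleen, red for tumor) and bars are exact 95% counting intervals. TRBV19, TRBV20 and TRBV23 fall in every animal when chains are counted, while single tumors rise for TRBV20 and TRBV23 when barcodes are counted.

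Being lower in all 7 animals was not particular to these members. Of the 21 TRBV genes with at least 20 barcodes over both tissues of every animal, 6 (28.6%) had a lower share of distinct chains outside the thymus in 7 of 7 animals, namely the 3 members and TRBV2, TRBV4 and TRBV5. By barcodes 1 of 21 did (4.76%), which was TRBV19. At a fold limit of 1.5 on barcodes, 6 of 41 member-by-animal comparisons were higher and 11 lower outside the thymus, against 8.5% higher and 15.7% lower over all 153 gene-by-animal comparisons. On distinct chains 3 were higher and 9 lower, against 3 (1.96%) and 16 (10.5%) over all genes. Both backgrounds include the members. The higher calls on distinct chains were 2 of TRBV30 and 1 of TRBV21-labelled chains, with medians of only 29.5 and 24.5 barcodes a table.

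The same 6 genes had the fewest TRB transcripts per cell. Leaving out TRBV8 and TRBV24, which had too few cells, 22 genes were ranked. In barcodes with both chains, the mean transcript count relative to the mean of the table had a median of 0.506 for TRBV20, 0.546 for TRBV19 and 0.604 for TRBV23, the lowest 3 of these genes. TRBV5, TRBV2 and TRBV4 came next at 0.681, 0.685 and 0.692. TRBV26 (0.878) and TRBV30 (0.899) took ranks 7 and 8. TRBV19 lay below the table mean in 14 of 14 tables. Over all TRB barcodes, tables of the second tissues had a median of 2.78 transcripts a barcode (1.56 to 4.41) against 3.72 (2.77 to 4.06) in the thymus. The part of transcript level in the lower shares was not tested.

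The fall was smaller in barcodes with both chains. There, distinct TRBV19 chains were lower outside the thymus in 5 of 7 animals (median ratio 0.941), TRBV20 chains in 5 (0.812) and TRBV23 chains in 6 (0.812), and TRBV13-2 was the 1 gene of 21 (4.76%) lower in all 7. Among chains with at least 2 transcripts, TRBV19 was lower in 6 animals (0.675), TRBV20 in 5 (0.550) and TRBV23 in 7 (0.491), and 4 of 21 genes (19%) were lower in all 7, TRBV23 among them.

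**Figure D3:**
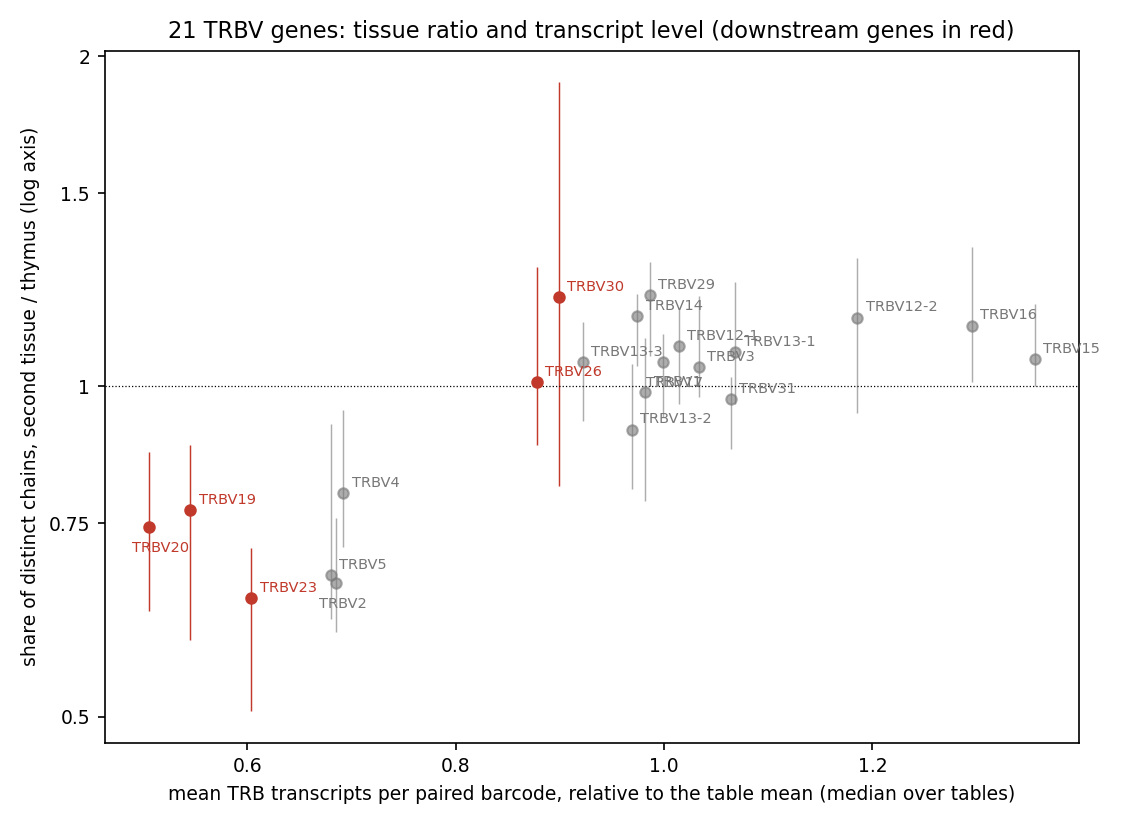
Ratio of distinct-chain shares, second tissue over thymus (log axis), against the mean TRB transcripts per paired barcode relative to the table mean, for 21 TRBV genes, with points at the median, bars over the range of 7 animals and members in red. TRBV20, TRBV19 and TRBV23 sit at the lower left with TRBV2, TRBV4 and TRBV5, whereas TRBV26 and TRBV30 lie at ratios of 1.01 and 1.21.

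Over the 14 tables, the non-member whose distinct-chain share followed each member most closely was TRBV4 for TRBV19 (Spearman rho 0.71), TRBV5 for TRBV20 (0.81), TRBV2 for TRBV23 (0.85), TRBV13-1 for TRBV26 (0.43) and TRBV3 for TRBV30 (0.60). For TRBV21-labelled chains it was TRBV5 (0.38). These tables share animals and sublibraries, and the shares within a table sum to a whole, so the values are descriptions.

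The tumors held large clones of 4 members. TRBV19, TRBV20, TRBV23 and TRBV26 together had 24 chains with at least 20 barcodes in tumor tables, 23 of which were not more frequent in another animal. These 23 were 9 TRBV19, 7 TRBV26, 5 TRBV20 and 2 TRBV23 chains. There were 3 such chains in thymus and 2 in spleen tables, each of them the leading TRBV20 chain of the mouse-164C tumor. Such chains were not counted over all TRBV genes, so these counts have no background. In non-members, the largest part of a gene held by a single chain in a tumor ran from 8.10% (TRBV12-2) to 73.5% (TRBV1). TRBV8, with few barcodes, is left aside. For the 4 members it ran from 13.6% (TRBV19) to 97.5% (TRBV23), so large clones were not particular to them. The CDR3 bases of the leading chains identify these clones. Bases assigned to the V segment are in capitals, and the D, added and J bases in lower case. The assignment tolerates mismatches to the germline. The 12 capitals of the mouse-164C TRBV20 chain end in GGG, where germline TRBV20 has AGG. The V origin of these last capitals is therefore uncertain.
TRBV20, mouse-164C tumor: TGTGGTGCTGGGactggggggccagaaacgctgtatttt
TRBV20, mouse-160C tumor: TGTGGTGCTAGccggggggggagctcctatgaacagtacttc
TRBV23, mouse-160A tumor: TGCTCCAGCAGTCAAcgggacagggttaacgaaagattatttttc
TRBV26, mouse-164B tumor: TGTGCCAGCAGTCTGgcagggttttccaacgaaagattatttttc
TRBV19, mouse-164B tumor: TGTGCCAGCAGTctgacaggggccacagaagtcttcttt
TRBV30, mouse-160B tumor: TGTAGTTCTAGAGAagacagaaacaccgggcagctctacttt

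TRBV20 was 4.41% of the barcodes in the mouse-164C tumor against 1.60% in the thymus of that animal, a ratio of 2.75 (2.43 to 3.13). The printed chain, joined to TRBJ2-3, accounted for 989 barcodes, which was 75.1% of the gene and 3.31% (3.11% to 3.52%) of the table. A single nucleotide sequence stood behind it in all 312 annotated barcodes. With an alpha chain of TRAV3-1 and TRAJ22 it formed the most frequent paired clonotype of the table, 827 cells or 6.23% (5.82% to 6.65%) of paired cells. By barcodes the chain ranked 2 in that tumor. An alpha chain was found in 85.8% of its barcodes, against 44.4% of all TRB barcodes of the tumor. Without this chain the TRBV20 ratio was 0.748 (0.637 to 0.878).

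In the mouse-160C tumor, TRBV20 had 3.10% of barcodes against 1.52% in the thymus, a ratio of 2.04 (1.72 to 2.41). The printed chain of that tumor, joined to TRBJ2-7, gave 305 barcodes or 73.0% of the gene, and without it the ratio was 0.566 (0.449 to 0.714). Only 8.85% of its barcodes had an alpha chain, against 85.8% for the mouse-164C chain, so paired clonotypes show little of it.

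TRBV23 reached 4.54% of barcodes in the mouse-160A tumor, while the other 13 tables lay between 0.223% and 0.721%. The printed TRBV23 chain, joined to TRBJ1-4, made up 234 of its 240 barcodes (97.5%). With an alpha chain of TRAV14-3 and TRAJ52 it was the second most frequent paired clonotype of that tumor, 206 cells or 11.4% (9.94% to 12.9%) of paired cells. By barcodes the chain ranked 4 there. An alpha chain was found in 88.9% of its barcodes, against 34.3% of all TRB barcodes of the tumor. The ratio of TRBV23 to the thymus was 8.75 (6.12 to 12.5) with this chain and 0.229 (0.0962 to 0.545) without it, the latter from 6 tumor barcodes.

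TRBV26 kept a share of 2.52% to 3.43% in all tumors, yet its make-up differed between them. In the mouse-164B tumor the printed TRBV26 chain, joined to TRBJ1-4, gave 217 barcodes or 43.6% of the gene, and the ratio to the thymus went from 1.10 (0.978 to 1.23) to 0.632 (0.550 to 0.726) without it. An alpha chain was found in 11.5% of its barcodes. In the mouse-160A tumor, another chain, with TRBJ2-7, made up 34.9% of TRBV26 barcodes. The most frequent paired TRBV26 clonotype joined TRBJ2-4 to an alpha chain of TRAV14-1 and TRAJ22, 30 cells (0.799%) in the mouse-160C tumor.

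TRBV19 clones were smaller. The largest chain, the printed one with TRBJ1-1, had 61 barcodes in the mouse-164B tumor, which was 11.3% of the gene there, and 6 TRBV19 chains of that tumor had at least 20 barcodes. The most frequent paired clonotype joined TRBJ1-3 to an alpha chain of TRAV6-2 and TRAJ27, 38 cells (0.456%) in the mouse-160B tumor. For TRBV30 the largest was the printed chain with TRAV14D-1 and TRAJ6, 6 cells (0.0720%) in the same tumor. A TRBV21-labelled chain with TRBJ2-3 was found with TRAV3-1 and TRAJ4 in 7 thymus cells and 12 tumor cells of mouse-160A.

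**Figure D4:**
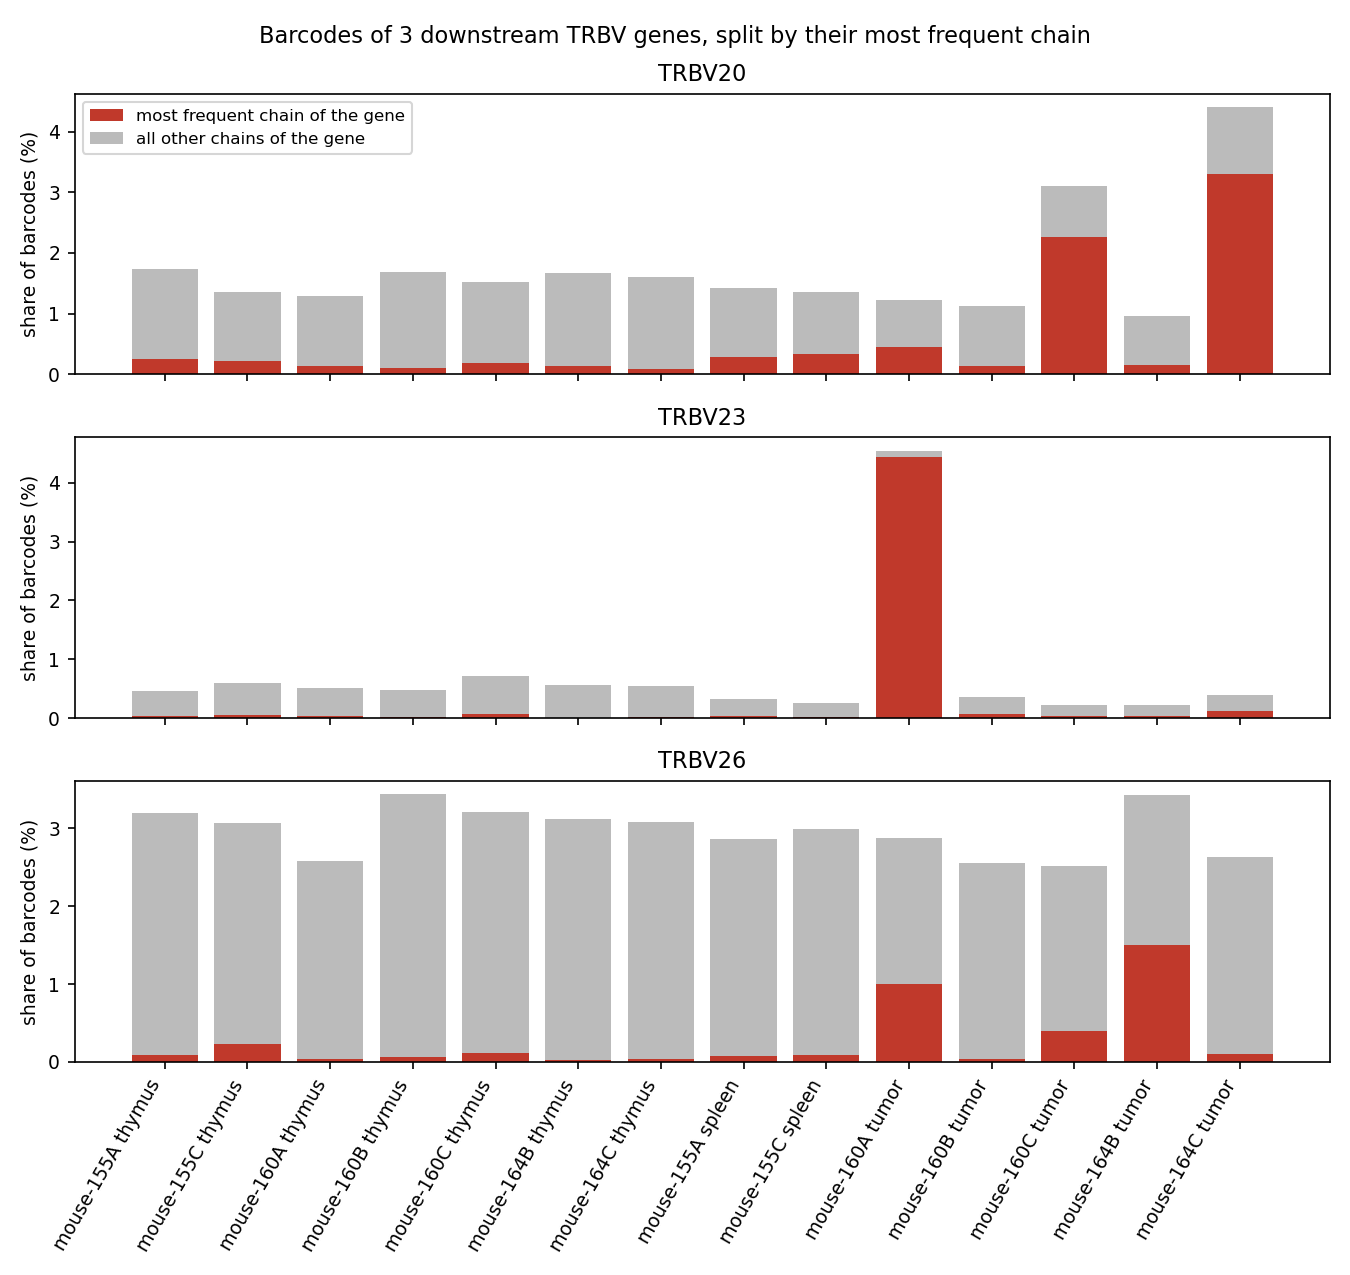
Share of a table's barcodes (%) with TRBV20, TRBV23 and TRBV26 in each of 14 tables, split into the most frequent chain of the gene in that table (red) and all its other chains (grey). One chain makes up most of the high bars, 3.31 of 4.41% for TRBV20 in the mouse-164C tumor and 4.43 of 4.54% for TRBV23 in the mouse-160A tumor.

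The chains of the large clones also appeared in other animals at low transcript counts. The TRBV20 chain of the mouse-164C tumor was found in 231 barcodes of 12 tables of other animals, each of them with 1 transcript and 5 with an alpha chain, and in the thymus of mouse-164C in 15 barcodes, again with 1 transcript each. The leading TRBV23 chain was found in 39 barcodes of other animals, each with 1 transcript, and the leading TRBV26 chain in 78, of which 77 had 1 transcript. In the mouse-155A spleen the TRBV20 chain was 19.9% of TRBV20 barcodes, and by distinct chains it counts as 1 there. All animals were processed in the same sublibraries, and the part of the shared sublibraries in these counts was not tested. In its own tumor 36.0% of the barcodes of this chain had 1 transcript.

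Sharing between animals differed with the transcript minimum. In thymus tables, 28.9% of distinct member chains were found in more than 1 animal, against 41.3% of all TRB chains. With at least 2 transcripts required in each animal, the shares were 4.79% (4.14% to 5.51%) and 10.1% (9.80% to 10.4%). TRBV20 and TRBV19 had the lowest shares of 22 genes without the minimum, 16.8% and 21.5%. With it they had 3.86% and 4.11%, and TRBV23, which had 24.7% without it, was the lowest at 2.08%. TRBV26 had 43.3% and 6.30%.

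Some member clonotypes were found in the thymus and the second tissue of the same animal. They were 9 of 2946 paired member clonotypes of the thymus, against 170 of 28614 over all genes. Of the 9, there were 2 each with TRBV19, TRBV20 and TRBV26 and 3 TRBV21-labelled. The most frequent of them by its lower share was the TRBV21-labelled clonotype of mouse-160A given above, followed by a TRBV20 clonotype of mouse-164B with 10 thymus and 15 tumor cells. The leading TRBV19 cases were a clonotype of mouse-160B with 4 and 9 cells and one of mouse-155C with 1 cell in each tissue. By TRB chain alone, 4.30% of member thymus chains recurred in the second tissue, against 6.66% of all chains.

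The CDR3 of each member opened with its own germline residues. Of TRBV20 chains 96.0% began with cysteine, glycine and alanine, of TRBV23 and TRBV30 chains 99.0% and 97.5% with cysteine and a pair of serines, and of TRBV19 and TRBV26 chains 98.3% and 99.2% with cysteine, alanine and serine, as the printed V ends encode. TRBV30 and TRBV20 had the shortest CDR3s of 22 genes, with means of 12.9 and 13.2 residues in the thymus against 13.99 over all chains, while TRBV23 had 14.3 (rank 4). At the V joint, TRBV26 and TRBV19 lost a median of 3 bases in thymus chains and TRBV20 1 base, and 38.7% of TRBV20 chains were untrimmed against 11.03% of TRBV19 chains. Trimming was read from the assigned V bases, which may hold mismatches. Over all tissues, 72.5% of annotated TRBV20 barcodes had full V identity, against 94.6% for TRBV19. TRBV19 had the most joint bases assigned to no germline segment of 22 genes, a mean of 4.62 against 4.31 over all chains. TRBV2 came next at 4.53, and no interval was computed, so the first rank is not resolved. A D was named for 72.9% of TRBV19 chains, so unrecognised D bases may be counted with added ones.

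The J genes divided the members. TRBJ2 is the J cluster that lies behind TRBD2, and TRBJ1 the one behind TRBD1. In thymus tables, TRBJ2 was used by 56.3% of TRBV26 chains (54.3% to 58.3%), 56.6% of TRBV20 chains (53.7% to 59.4%) and 57.2% of TRBV19 chains (55.5% to 58.9%), against 63.1% of all TRB chains (62.8% to 63.5%). TRBV26 and TRBV20 had the lowest shares of 22 genes, and the non-member TRBV31 came next at 56.8%. TRBV30 had the highest, 73.0% (66.4% to 79.0%) of 204 chains, and TRBV23 lay at 62.1% (57.4% to 66.7%). The non-member TRBV17, at 71.0%, lay within the TRBV30 interval, so the first rank is not resolved. By table, TRBV26 ranged from 52.0% to 59.4% and all genes from 61.9% to 64.8%, so the ranges did not overlap, whereas TRBV30 ranged from 57.1% to 86.7%.

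The D segment followed in TRBV26. TRBD2 was named in 21.01% of TRBV26 chains with a D, the lowest of 22 genes, against 39.3% of all chains (38.9% to 39.7%), and TRBV29, the next annotated V gene of the array, came next with 22.1%. TRBV19, TRBV20 and TRBV30 had 34.8%, 33.3% and 33.3%, and TRBV23 42.4%. D segments are short and often trimmed beyond recognition, and a D was named for 71.8% of TRBV26 chains and 74.3% of all chains. Outside the thymus the TRBJ2 share of TRBV26 was 62.3% and that of all genes 66.6%.

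**Figure D5:**
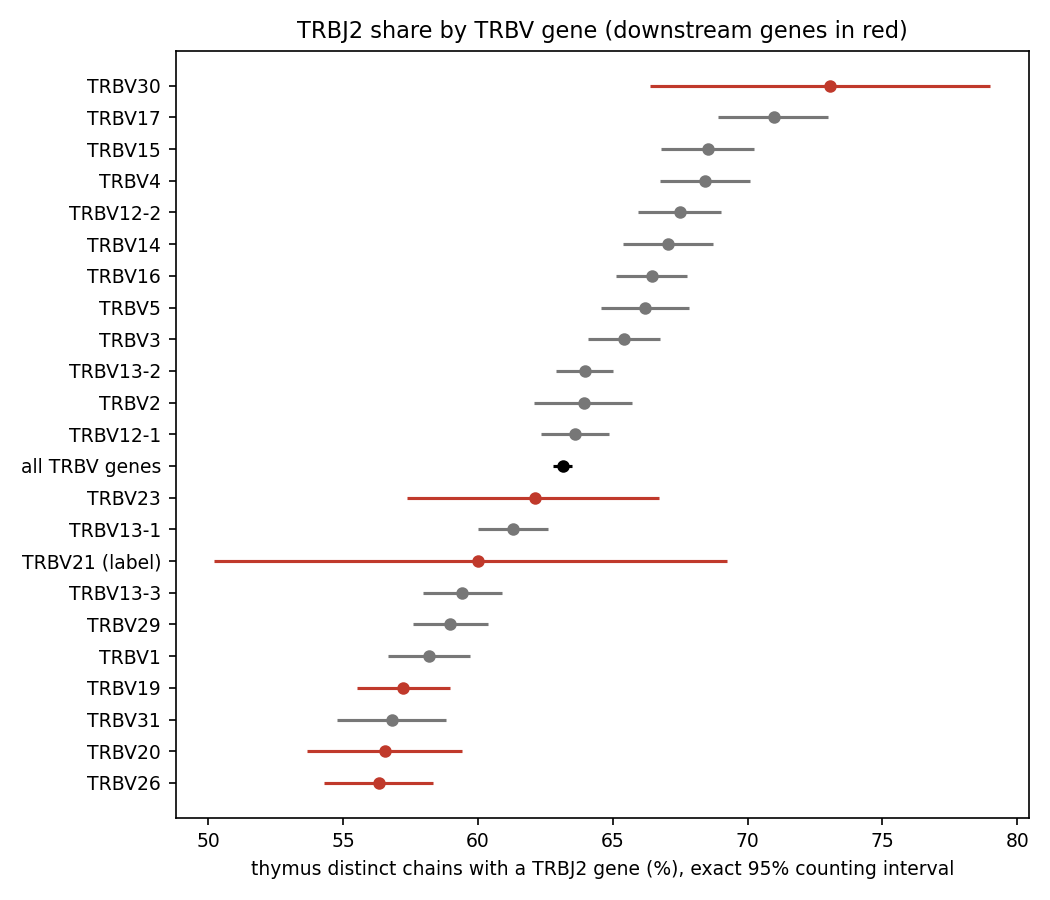
Thymus distinct chains with a TRBJ2 gene (%) for 21 TRBV genes with at least 100 chains, the TRBV21-labelled chains and all genes together (black), with exact 95% counting intervals and members in red. TRBV26, TRBV20 and TRBV19 lie among the 4 lowest genes at 56.3% to 57.2%, and TRBV30 is the highest at 73.0%.

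Invariant NKT-like cells, marked by a TRAV11 or TRAV11D chain joined to TRAJ18, made little use of the members. In the thymus 56 of 2983 paired member cells had such an alpha chain, 1.88% (1.42% to 2.43%), against 8.33% (8.01% to 8.65%) of all paired cells. The share was 2.09% for TRBV19, 1.28% for TRBV20, 2.03% for TRBV23, 1.69% for TRBV26 and 4.88% for TRBV30, the last from 4 of 82 cells. The MAIT-like combination of TRAV1 and TRAJ33 was in 0 of 6869 paired member cells, which allows a share of up to 0.0437%, and in 1 of 29134 thymus and 0 of 37780 second-tissue cells over all genes, so these counts say nothing particular of the members.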

How the data were processed

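CD8+ T cells isolated with magnetic beads were processed by the authors with a combinatorial-barcoding single-cell TCR kit and the Parse Biosciences TCR pipeline. The labels name the build GRCm39, while pipeline version and settings are not stated. Sublibraries were combined into 1 set of tables per animal and tissue, so the 8 GEO samples carry no group and the animal and tissue were read from the names of the deposited tables. Per the file headers, the deposited tables hold transcript counts for the chains of a barcode, a multiplet mark of 0 or 1, cell counts of paired clonotypes, and V identity in percent. No values of the authors' own comparisons were used.

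Barcodes marked as multiplets were left out (23733 of 212277). Shares of barcodes, of distinct chains and of paired cells were computed per table with exact 95% intervals, and ratios of the second tissue to the thymus of the same animal with log-binomial intervals. Comparisons at a fold limit of 1.5 needed at least 20 barcodes over both tables, and ranks at least 100 thymus chains. A value of 0 was read against a floor of 3 counts. V names were checked by comparing each annotated read, up to base 11 of the CDR3 and without gaps, with GRCm39 segments of the GENCODE annotation. Annotation tables covered all TRB barcodes in 11 of 14 tables, 92.7% in the mouse-160B thymus, 41.1% in the mouse-164B thymus and 30.4% in the mouse-164C tumor. Python 3.11.15 with pandas 2.3.3, NumPy 2.4.6, SciPy 1.17.1 and pysam 0.24.0 was used, and the interval code was tested on simulated data.

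The members and lists were chosen with earlier results of these data known. All 7 members were named, with TRBV29, TRBV31 and the non-member closest to each member by Spearman correlation, the most frequent paired clonotype of each member, member clonotypes leading a table, and for each animal the shared member clonotype with the highest smaller frequency. Other genes and the leading single chains were named after their values were seen. Alternatives were the counted unit, paired or single-TRB barcodes, multiplets, a transcript minimum, leading chains, sublibraries, the fold limit and the clonotype definition.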

Additional observations from a re-analysis of the deposited data

Results flagged for a closer look

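In 28 groups, each of 7 thymus or 5 tumor values, checked for a sample far from the rest, 5 held one. Chance gives about 1 in 20 for separate groups. These groups overlap, since barcode and distinct-chain shares of a gene were both checked. In the thymus of mouse-155A, TRBV19 was lowest of 7 both by barcodes (3.59%) and by distinct chains (3.94%). TRBV26 was lowest in the thymus of mouse-160A, with 2.58% of barcodes. Among 5 tumors, mouse-160A stood highest for TRBV23, with 4.54% of barcodes, and for TRBV21-labelled chains, with 0.492%. Single chains made up 97.5% and 73.1% of those barcodes.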

How the results depend on the processing

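Of 312 values computed under an alternative, 299 were marked as unchanged, 10 as moved and 3 as reversed. The limits differed with the kind of value. For the median chain ratios of TRBV26 and TRBV30 no change could be marked, so their place among the 299 was fixed in advance. Ratios of single animals and the median chain ratios of TRBV19, TRBV20 and TRBV23 could be marked only as unchanged or reversed. Counts within 1.5-fold of the main count were marked as unchanged. The smaller number of animals with lower TRBV19 and TRBV20 chains in paired barcodes is therefore among the 299. The TRBV26 median ratio ran from 0.979 to 1.03 when single sublibraries were left out, on both sides of 1. The median summed thymus share was 9.61% by barcodes, 10.3% by distinct chains, 7.36% by transcripts, 10.1% in paired barcodes and 8.86% with at least 2 transcripts. The second-tissue median was 8.33% by barcodes and 6.23% by transcripts. The ratio of mouse-160A turned from 1.28 to 0.926 by distinct chains and 0.872 by transcripts, and that of mouse-164C from 1.11 to 0.843 by distinct chains. A clone counts once among distinct chains by construction, and the cause of the transcript values was not tested. A 2-fold limit left 3 higher and 6 lower comparisons of 6 and 11, and distinct chains gave 3 higher.

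Leaving out each of the 8 sublibraries in turn gave thymus medians of 9.55% to 9.76%, second-tissue medians of 8.21% to 8.46%, a median ratio of 0.843 to 0.893 and 5 animals below 1 each time. TRBV19, TRBV20 and TRBV23 chains were lower in 7 animals in each of these 8 runs. Alternatives on paired barcodes, on at least 2 transcripts per chain, on shared chains and without TRBV21-labelled chains were chosen after seeing the data. TRBV26 was lower in 5 animals with at least 2 transcripts, against 3, and TRBV30 in 1 without sublibrary 6, against 2. Tissues pair within the 7 animals by table name, and a paired test over animals could be made from them but was not run, because the labels give the samples no groups. Rare members are limited by depth, with as few as 7 TRBV23 chains and 5 TRBV21-labelled barcodes in a table.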

Other observations

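TRBV24 was also listed as the second TRB chain of 4 barcodes. Members made up 11.02% of all second TRB chains, against 9.34% of first chains, and the leading TRBV20 chain of the mouse-164C tumor was the second TRB chain of 542 barcodes. Multiplets were 8.06% of member barcodes and 11.2% of all TRB barcodes, with the lowest member share in TRBV19 at 5.89% and the highest in TRBV30 at 11.9%, TRBV24 with its single barcode aside.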
